A study of Mus musculus with 6 samples.

Results

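The genes described here are 38 genes that dividing cells use to copy and divide their genome, taken as a set that marks proliferating progenitors of the subventricular zone. They were chosen by symbol: a row of the deposited table belongs to the set if its Ensembl identifier carries one of 38 listed cell cycle symbols, and all 38 were found among the 47062 genes of the table. By role they were 6 genes of G1 and S phase entry, 9 of replication origin licensing and firing, 4 of DNA synthesis, 8 of G2 and mitotic entry, 7 of the spindle and its checkpoint, 2 of mitotic exit and 2 of chromatin.

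RNA was measured in newborn mouse striatum (postnatal day 0) that was dissected together with the subventricular zone, in 3 control and 3 mutant libraries. All animals carried Sp9Flox/Flox on a mixed background of C57BL/6J, 129S6 and CD1, and the protein made from Sp9 is a transcription factor with zinc fingers. Controls were littermates with no Cre, and mutants were Drd2-Cre; Sp9Flox/Flox, so that the Drd2 promoter drives Cre. Recombination is then expected in cells that use Drd2, the dopamine D2 receptor gene, and in their descendants. No group carried Drd2-Cre alone, and since the labels leave unsaid whether each library is a separate animal, the tests rest on the spread between libraries, which may be technical.

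As background, cyclin D with its kinases starts the cycle by inactivating the retinoblastoma protein, which frees E2F factors to switch on genes for DNA replication. Genes of mitosis follow later through the MuvB complex with B-Myb and FOXM1, which acts at CHR elements, often near CCAAT boxes bound by NF-Y. In the newborn forebrain the subventricular zone holds intermediate progenitors that still divide and make neurons and glia, while striatal projection neurons have left the cycle. The same genes are used by every dividing cell, such as oligodendrocyte precursors, microglia and vessel cells. In bulk tissue, fewer dividing cells and less RNA per dividing cell cannot be told apart, and these values do not assign the genes to a cell type.

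The libraries held 16237067 to 19457784 fragments in genes. Levels are in FPKM, which counts fragments relative to transcript length and to sequencing depth. Sp9 was at 20.1, 19.0 and 17.3 FPKM in the controls and 8.37, 7.93 and 9.67 FPKM in the mutants, which matches the labels (limma log2 fold change -1.08 ± 0.09 SE, adjusted p = 0.0567). Markers of progenitors were present: 17 of 18 listed genes had a mean of at least 0.5 FPKM. One library stood apart for the cell cycle genes, mutant replicate 3, so results are given with and without it. Control replicate 3 was the only male library, by its Y-linked genes.

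The level of the 38 genes spanned a wide range per length of transcript. Pcna, the sliding clamp of the replication fork, led with a mean of 35.9 FPKM, followed by Ccnd2, Mcm7, Rrm2 and Rrm1, the other 4 genes above 10 FPKM. Between 4 and 10 FPKM lay 9 genes, and 24 were under 4 FPKM. Cdc6, a loader of the replicative helicase, was lowest at a mean of 0.418 FPKM, under the filter, so 37 of the 38 genes were tested. Fragments per gene and library ran from 17 to 3385, which limits the precision of the low genes.

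The promoters of these genes split by phase in the motifs they hold. RefSeq (GRCm38.p6) windows of 300 bases, 250 before and 50 after the start, were matched for 30 of the 38 genes. For E2f1, Mcm7 and Cdc6 the start used lay 466, 539 and 350 bases from the annotated gene start. An E2F motif (TTTCCCGC, TTTGGCGC, TTTCGCGC or TTTGCCGC on either strand) was found in 7 of 15 genes of G1, licensing and synthesis and in 1 of 15 genes of mitosis, Cdk1, against 2.33% of 27025 genes. The 7 were Cdk2 and the licensing genes Cdc6, Cdt1, Mcm3, Mcm5, Mcm6 and Mcm7, and no synthesis gene held a match. A CHR (TTTGAA or TTCGAA on either strand) was found in 3 of the 15 genes of G1, licensing and synthesis and in 12 of the 15 mitosis genes, against 19.5% of all. A CCAAT box, on either strand, was in 10 and 14 of them, against 38.02%. Neighbouring matches can overlap, and a match is a description of letters, not of binding. The 250 bases upstream of 4 genes that recur in the results below are shown, each on the strand of its gene, with matches in capitals. Mcm6 stands for the licensing genes, and the other 3 for mitosis and chromatin.
Mcm6, chr1:128359706-128359955, minus strand: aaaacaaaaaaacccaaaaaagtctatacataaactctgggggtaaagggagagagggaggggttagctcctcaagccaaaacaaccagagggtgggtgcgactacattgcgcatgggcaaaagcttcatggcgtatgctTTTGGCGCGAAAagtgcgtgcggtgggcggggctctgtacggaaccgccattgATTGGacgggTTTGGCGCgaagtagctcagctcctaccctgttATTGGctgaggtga
Mki67, chr7:135716380-135716629, minus strand: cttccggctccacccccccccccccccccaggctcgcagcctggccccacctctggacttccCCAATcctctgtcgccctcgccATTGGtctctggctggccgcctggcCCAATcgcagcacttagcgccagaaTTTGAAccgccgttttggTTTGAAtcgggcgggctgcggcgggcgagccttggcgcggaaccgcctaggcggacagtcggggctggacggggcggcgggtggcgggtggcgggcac
Top2a, chr11:99024190-99024439, minus strand: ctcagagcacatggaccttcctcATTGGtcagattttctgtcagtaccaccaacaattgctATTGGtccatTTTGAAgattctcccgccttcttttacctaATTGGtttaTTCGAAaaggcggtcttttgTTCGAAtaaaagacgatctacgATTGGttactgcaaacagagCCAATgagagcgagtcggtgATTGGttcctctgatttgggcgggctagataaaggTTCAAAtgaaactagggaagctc
Kif11, chr19:37376132-37376381, plus strand: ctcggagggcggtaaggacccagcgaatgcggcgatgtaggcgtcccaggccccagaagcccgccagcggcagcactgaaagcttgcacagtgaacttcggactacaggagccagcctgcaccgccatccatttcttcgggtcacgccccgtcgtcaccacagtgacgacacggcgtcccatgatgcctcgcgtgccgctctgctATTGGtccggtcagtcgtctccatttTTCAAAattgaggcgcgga
Mcm6 holds 3 E2F matches, of which 2 overlap, and 2 CCAAT boxes. Mki67 holds 2 CHR and 3 CCAAT matches, Top2a 4 CHR and 6 CCAAT matches, and Kif11 a single CHR with a single CCAAT box upstream of it.

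The comparison of mutant with control asks here whether proliferation differed after Sp9 was deleted with Drd2-Cre. No cell cycle gene passed the test between the groups: of 37 tested, 0 reached an adjusted p of 0.05 (limma on log2(FPKM + 0.5), Benjamini-Hochberg over 16666 genes, of which 0.06% did). At an unadjusted p under 0.05 there were also 0, against 5.65% of all genes tested, and in 0 did the 3 mutants lie apart from the 3 controls, against 11.4%. The count was 0 too by the study's rule, a fold of at least 2 with p of at most 0.05, which 0.342% of all genes met. On the deposited scaled counts, described at the end, 0 of 38 genes passed at the adjusted or the unadjusted threshold, against 0.143% and 6.42% of all genes. The median log2 fold change, mutant minus control, was 0.04 over the 37 genes and -0.00016 over all genes. Of the 37, 25 were above 0, against 49.9% of all genes tested. For 31 of the 37 genes the 95% interval lay within a 2-fold change either way, against 88.1% of all genes. For only 12 it lay within 1.5-fold, against 71.2% of all genes.

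The set varied together between libraries, and most of that variation lay in mutant replicate 3. This library held the highest FPKM of 36 of the 38 genes, and of 35 of the 37 tested, while it was highest for 17.3% of all genes tested. The exceptions were Cdc45, highest in control replicate 1, and Ccne2, highest in mutant replicate 1. Its level was at least 1.5 times the mean of the other 5 libraries for 20 of the 37 genes (5.59% of all genes) and at least 2 times for 7 (2.5%). Mutant replicates 1 and 2 were lowest for 14 and 8 of the 38 genes, control replicate 3 for 10, and mutant replicate 3 for 0. The spread was accordingly wider in mutants: the median SD of log2 values was 0.41 there and 0.17 in controls, against 0.11 and 0.12 over all genes. The SD was larger among mutants for 34 of the 37 genes, against 47.0% of all genes tested.

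**Figure D1:**
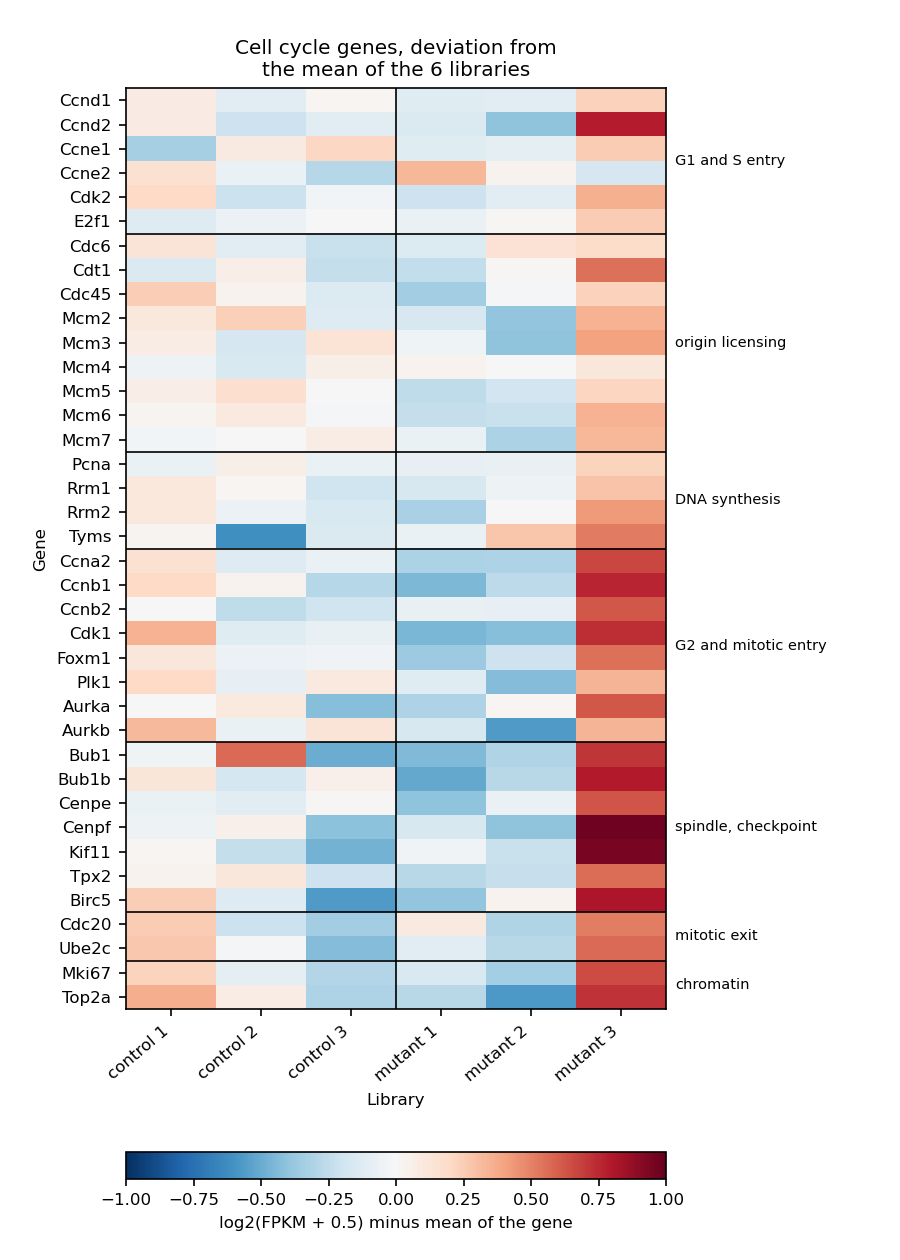
Deviation of each gene's log2(FPKM + 0.5) from its mean over the 6 libraries (columns), for the 38 cell cycle genes (rows) grouped by role. Red fills the column of mutant replicate 3, which holds the highest value of 36 of the 38 genes, and is deepest in the spindle genes; Ccne2 and Cdc45 are the exceptions.

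Genes of G1 and S phase entry deviated least: the median level in mutant replicate 3 was 1.31 times the mean of the other 5 libraries. Ccnd2 (chr6:127125162-127152193, minus strand), a D-type cyclin of neural progenitors, was at 28.1, 22.9 and 24.5 FPKM in controls and 24.0, 20.0 and 46.1 FPKM in mutants. The third mutant stood 1.64 times above the next library, while of the other 2 the first lay among the controls and the second below them. Its log2 fold change was 0.16 ± 0.31 (SE, adjusted p = 0.963, limma), and -0.19 ± 0.13 without mutant replicate 3. Ccnd1, the other D-type cyclin among the 38 genes, was nearly level, at 7.89, 6.88 and 7.54 FPKM in controls and 6.79, 6.83 and 8.81 FPKM in mutants. Ccne2, a cyclin E that drives S phase entry with Cdk2, was at 4.57, 3.85 and 3.24 FPKM in controls and 5.25, 4.17 and 3.55 FPKM in mutants. It was the only gene of the 38 whose FPKM in mutant replicate 3 was under the mean of the other 5 libraries, at 0.843 times it, but on scaled counts the ratio was 1.045. The other cyclin E gene Ccne1, the kinase Cdk2 and the transcription factor E2f1 lay at 1.33, 1.42 and 1.29 times the mean of the other 5 in mutant replicate 3.

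Licensing genes build and start the replication fork, and 6 of the 9 here encode subunits of the MCM helicase. In mutant replicate 3 the median of the 8 tested was 1.34 times the mean of the other 5 libraries. Mcm6 (chr1:128331590-128359664, minus strand), whose promoter holds the E2F matches above, was at 5.72, 6.04 and 5.53 FPKM in controls and 4.67, 4.72 and 7.26 FPKM in mutants. The first 2 mutants lay below every control and the third above. Mcm5 was at 5.12, 5.52 and 4.87 FPKM in controls and 3.99, 4.21 and 5.72 FPKM in mutants, the same order. Mcm2 had 3.59, 3.99 and 2.98 FPKM in controls and 2.91, 2.39 and 4.34 FPKM in mutants. With all libraries none of these 3 passed the test: the log2 fold changes were -0.08 ± 0.17 for Mcm6, -0.15 ± 0.14 for Mcm5 and -0.14 ± 0.22 for Mcm2. Mcm7 was the most abundant subunit, at 22.9 ± 0.83 FPKM in controls and 22.8 ± 5.42 FPKM in mutants (SD, n = 3 each). Mcm4 was the steadiest subunit, between 4.44 and 5.42 FPKM over the 6 libraries. Mcm3 and the licensing factor Cdt1 stood at 1.48 and 1.79 times the mean of the other 5 in mutant replicate 3. Cdc45, which completes the active helicase, ranged from 0.741 FPKM in mutant replicate 1 to 1.37 FPKM in control replicate 1.

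The 4 synthesis genes were similar, with a median of 1.36 times. Pcna (chr2:132249162-132253314, minus strand) was at 34.2, 37.4 and 34.2 FPKM in controls and 33.8, 33.9 and 41.9 FPKM in mutants. The first 2 mutants were a little under the controls and the third above them, and the 95% interval of its log2 fold change, -0.20 to 0.28, was among the narrowest of the set. Rrm1 and Rrm2, the subunits of ribonucleotide reductase, which makes deoxynucleotides, were at 11.01 ± 1.198 and 11.7 ± 1.14 FPKM in controls and 11.5 ± 2.01 and 12.6 ± 3.44 FPKM in mutants (SD, n = 3 each). Tyms, which makes thymidylate, had the smallest p of the 37 genes. Its values were 3.31, 1.95 and 2.89 FPKM in controls and 3.08, 4.04 and 4.86 FPKM in mutants, so that the groups overlapped. The log2 fold change was 0.49 ± 0.23 (adjusted p = 0.868, limma), and on scaled counts 0.18 ± 0.22.

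The step between mutant replicate 3 and the rest was wider in genes of G2 and mitosis. The 8 genes of mitotic entry had a median of 1.83 times the mean of the other 5 libraries there, and all 8 were highest in that library. Ccna2, the cyclin of S phase and G2, was at 6.45, 5.20 and 5.47 FPKM in controls and 4.51, 4.53 and 9.39 FPKM in mutants. Ccnb1, the main mitotic cyclin, was at 3.93, 3.45 and 2.66 FPKM in controls and 2.33, 2.72 and 6.05 FPKM in mutants. Cdk1, the kinase it activates, was at 7.28, 5.11 and 5.31 FPKM in controls and 3.96, 4.05 and 9.68 FPKM in mutants. By FPKM, the first 2 mutants lay under all controls in Ccna2 and Cdk1, while in Ccnb1 they overlapped control replicate 3. On scaled counts they lay under all controls in Ccnb1 too, but not in Cdk1. With all 6 libraries the log2 fold changes were 0.03 ± 0.29 for Ccna2, 0.04 ± 0.35 for Ccnb1 and -0.10 ± 0.36 for Cdk1. Foxm1, the transcription factor of mitotic genes, ranged from 2.25 FPKM in mutant replicate 1 to 4.69 FPKM in mutant replicate 3. Ccnb2, a further mitotic cyclin, stood at 1.89 times the mean of the other 5 in mutant replicate 3. The mitotic kinases Plk1, Aurka and Aurkb stood at 1.39, 1.87 and 1.36 times it.

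Spindle genes deviated most on FPKM, with a median of 2.14 times and all 7 highest in mutant replicate 3. On scaled counts their median was 1.86 times, under the 1.95 times of the 2 chromatin genes. Kif11 (chr19:37376403-37421859, plus strand), the motor that pushes spindle poles apart, was at 1.78, 1.41 and 1.12 FPKM in controls and 1.69, 1.43 and 3.85 FPKM in mutants. The third mutant was 2.16 times the next library, and the other 5 libraries overlapped. Cenpf, a kinetochore protein of G2 and mitosis, was at 1.29, 1.42 and 0.895 FPKM in controls and 1.16, 0.902 and 3.13 FPKM in mutants. Its ratio to the mean of the other 5 was the largest of the set, 2.76 on FPKM, but 1.86 on scaled counts. Bub1b, a checkpoint protein, was at 1.81, 1.39 and 1.71 FPKM in controls and 0.998, 1.26 and 3.19 FPKM in mutants, below all controls in the first 2 and above them in the third. The checkpoint kinase Bub1 differed in that control replicate 2, at 2.23 FPKM, came close to the 2.52 FPKM of mutant replicate 3. Birc5 (survivin), the kinetochore motor Cenpe and the spindle assembly factor Tpx2 stood at 2.14, 2.04 and 1.71 times the mean of the other 5. None of the 7 passed the test between groups; the largest log2 fold change was that of Kif11, 0.46 ± 0.34 (adjusted p = 0.888, limma).

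Mitotic exit and chromatin genes were also highest in mutant replicate 3, but the exit genes were lowest in control replicate 3. Cdc20 and Ube2c, an activator and an enzyme of the anaphase-promoting complex, stood at 1.58 and 1.64 times the mean of the other 5 in mutant replicate 3. Mki67 (chr7:135689784-135716361, minus strand), which coats mitotic chromosomes and is the usual marker of dividing cells, was at 2.58, 1.96 and 1.65 FPKM in controls and 1.87, 1.58 and 3.64 FPKM in mutants. Top2a (chr11:98992943-99024189, minus strand), the topoisomerase that untangles sister chromatids, was at 8.46, 6.80 and 5.10 FPKM in controls and 5.25, 4.16 and 10.9 FPKM in mutants. In both, mutant replicate 3 was highest and mutant replicate 2 lowest, and control replicate 1 came second. The log2 fold change was 0.11 ± 0.30 for Mki67 and -0.09 ± 0.37 for Top2a (adjusted p = 0.978 and 0.988, limma).

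**Figure D2:**
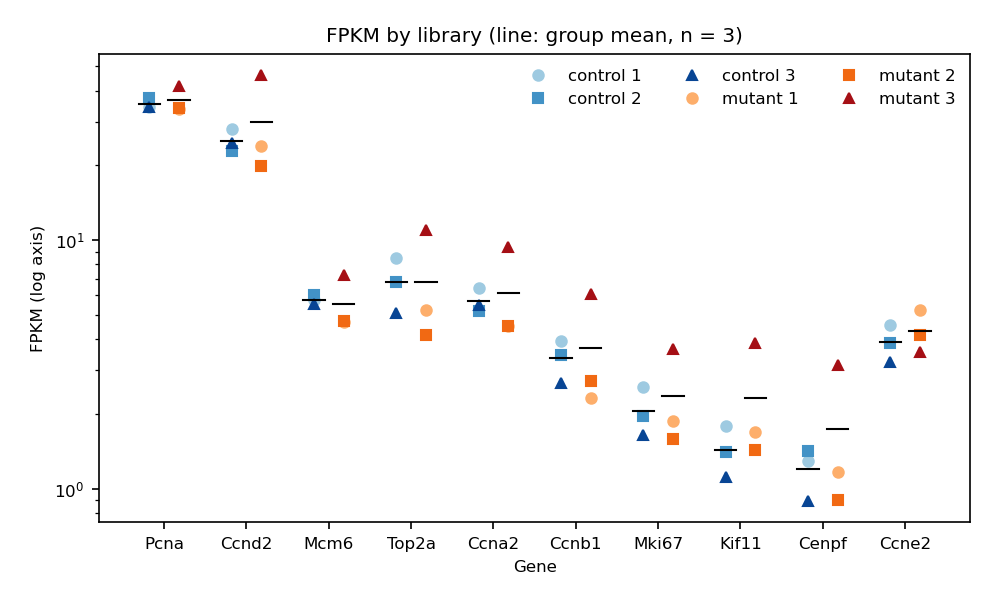
FPKM (log axis) of 10 cell cycle genes in the 3 control (blue) and 3 mutant (orange and red) libraries, with a line at each group mean. Mutant replicate 3 (red triangle) lies above the other 5 libraries in all but Ccne2, from 46.1 FPKM for Ccnd2 to 3.13 FPKM for Cenpf.

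The direction of the set turned when mutant replicate 3 was left out. Of the 37 genes, 31 then had a log2 fold change below 0, against 49.2% of all genes, and the median was -0.18, against 0.00 over all genes. That library was picked because these genes were high in it, so leaving it out lowers the mutant mean of nearly every gene. The genes also vary together, so counts of them are not counts of independent genes. Among the other 5 libraries, control replicate 1 was highest for 20 of the 38 genes. The median deviation of the set was -0.13 in control replicate 3 and -0.16 in mutant replicate 1. The remaining 2 mutants both lay below all 3 controls for 13 of the 37 genes, against 11.2% of all genes tested, and both above for 0. By FPKM these 13 were Ccnd1, Mcm2, Mcm5, Mcm6, Mcm7, Pcna, Ccna2, Cdk1, Foxm1, Plk1, Aurkb, Bub1b and Tpx2. On scaled counts Ccnd1, Cdk1 and Plk1 did not keep this order, while Ccnb1, Cenpe, Cenpf and Top2a gained it. Some margins were small, as for Ccnd1, at 6.83 FPKM in mutant replicate 2 and 6.88 FPKM in control replicate 2. No gene passed the adjusted threshold in this fit of 2 mutants and 3 controls, in which 0.126% of all genes did. At an unadjusted p under 0.05, 3 were lower, against 3.13% of all genes. They were Mcm5 (log2 fold change -0.30 ± 0.09 SE), Mcm6 (-0.27 ± 0.08) and Cdk1 (-0.49 ± 0.17), with limma adjusted p of 0.744, 0.732 and 0.770. None was higher at that threshold, against 3.24% of all genes. On scaled counts without that library, 8 of 38 were lower at an unadjusted p under 0.05, against 3.55% of all genes, and 0 passed the adjusted one, against 0.198% (smallest adjusted p 0.428). They were Mcm2, Mcm5, Mcm6, Foxm1, Bub1b, Cenpe, Cenpf and Top2a, so only Mcm5 and Mcm6 were lower by both measures, and Cdk1 was not (-0.02 ± 0.20). With any of the other 5 libraries left out, the median stayed above 0.

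**Figure D3:**
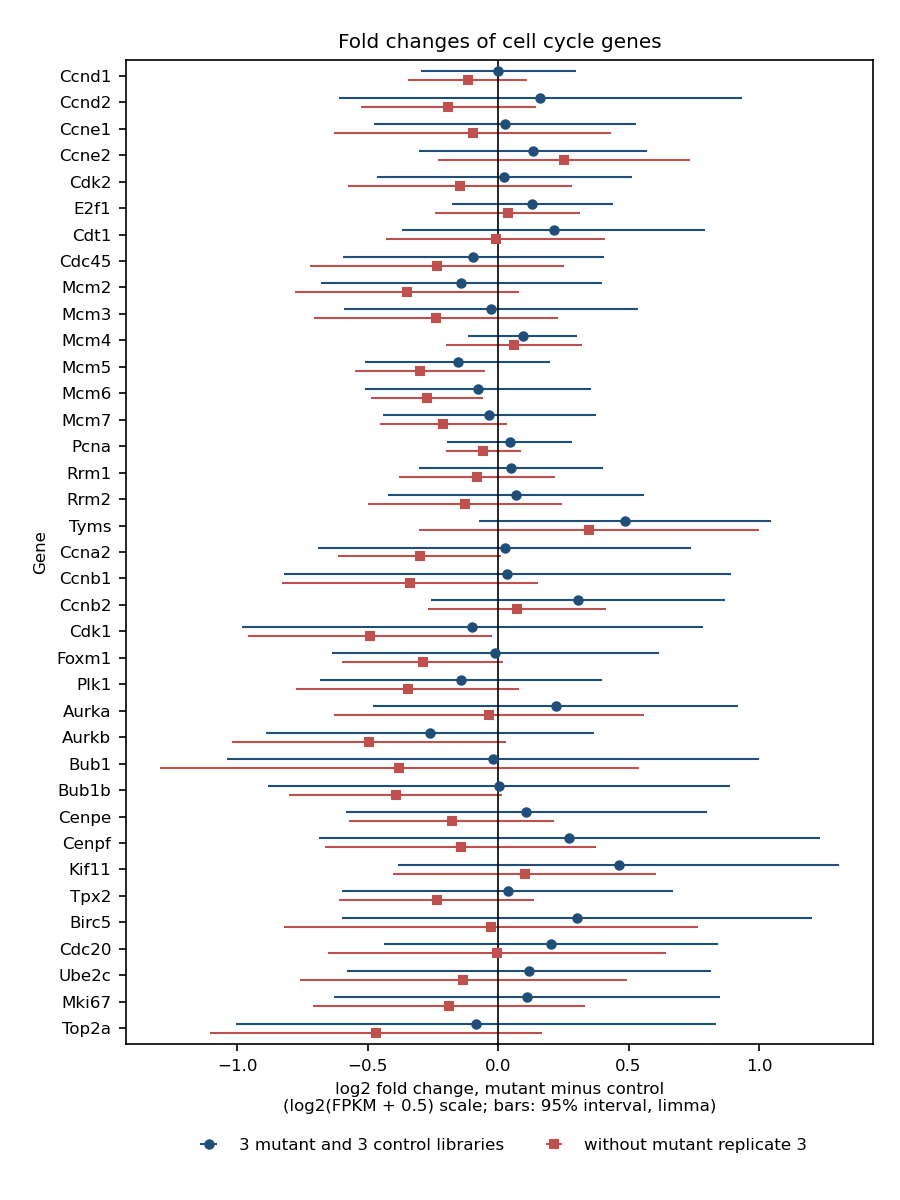
log2 fold change (mutant minus control) of the 37 tested genes with its 95% interval, from all 6 libraries (blue circles) and without mutant replicate 3 (red squares). All blue intervals cross 0, and 31 of the 37 red squares lie below 0, of which the intervals of Mcm5, Mcm6 and Cdk1 do not reach 0.

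Lists of other genes of the cycle gave 0 calls as well, against 0.06% of all genes. Of the 41 tested further replication genes, 2 had an unadjusted p under 0.05 and were higher in mutants, against 5.65% of all genes in either direction. Rfc5, a subunit of the clamp loader, was at 16.4, 17.0 and 15.9 FPKM in controls and 18.7, 18.4 and 19.8 FPKM in mutants (log2 fold change 0.20 ± 0.05, adjusted p = 0.743, limma). Its groups did not overlap, as in 11.4% of all genes tested and in 0 of the 37. The other was Gins2, a helicase cofactor (0.21 ± 0.08). Of 53 further mitosis genes 1 was higher at that threshold, Mastl, a kinase of mitotic entry (0.48 ± 0.16, adjusted p = 0.833), and of 16 further genes of G1, Rb and E2F none was. Of 5 tested inhibitors of cyclin-dependent kinases, 1 was higher at that threshold, Cdkn1a (p21), and 0 were lower. Cdkn1a was at 6.93, 7.47 and 8.15 FPKM in controls and 8.21, 9.75 and 8.98 FPKM in mutants (0.24 ± 0.09, adjusted p = 0.858 in limma). The groups of Mastl and, by a small margin, of Cdkn1a did not overlap either. Mutant replicate 3 was highest for 39 of the 53 further mitosis genes and 20 of the 41 tested replication genes, against 17.3% of all genes, with median ratios to the other 5 libraries of 1.49 and 1.13.

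Markers of other cells moved with mutant replicate 3 to different degrees, and their part in the result was not tested. The 3 listed genes of precursors leaving the cycle were all highest there. Insm1, which drives the delamination of intermediate progenitors, was at 8.07, 6.54 and 6.23 FPKM in controls and 5.37, 5.33 and 13.6 FPKM in mutants, so that the mutant group held both its highest and its lowest libraries, as for Ccna2 and Cdk1. Of the 17 tested progenitor genes 6 were highest in that library, against 17.3% of all genes, and the median ratio of the 17 was 1.17. Pax6, named after its values were seen, was at 8.46 FPKM in mutant replicate 3 and between 1.54 and 3.27 FPKM elsewhere. At an unadjusted p under 0.05 stood 1 of the 17 tested progenitor genes, Dlx5 (log2 fold change 0.53 ± 0.12, limma adjusted p = 0.688), a share near the 5.65% of all genes.

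Cortical markers were also high in that library. All 5 listed genes of cortical glutamatergic neurons were highest there, the 4 of them that passed the filter at a median of 2.91 times the mean of the other 5 libraries, and none was at 0 in any library. Their summed level was 14.5, 18.0 and 5.43 FPKM in controls and 27.6, 6.41 and 41.9 FPKM in mutants. The order differed from that of the cell cycle genes, whose summed level was 219.6, 201.6 and 191.9 FPKM in controls and 184.5, 178.6 and 293.3 FPKM in mutants: mutant replicate 1 was second for cortical markers and second lowest for cell cycle genes. Of 5 oligodendrocyte precursor markers 4 were highest in mutant replicate 3, against 17.3% of all genes, with a median ratio of 1.255. Control replicate 1 was close to it, with a summed level of 78.7 FPKM against 80.1 FPKM in mutant replicate 3. Microglial, vessel and astrocyte lists had median ratios of 1.16, 1.09 and 1.02, and striatal neuron markers 0.934. These ratios do not compare the groups. Of the 10 striatal neuron markers 1 passed the adjusted threshold, against 0.06% of all genes. It was Adora2a, at a mean of 44.3 FPKM in controls and 4.11 FPKM in mutants (limma adjusted p = 0.0085). At an unadjusted p under 0.05, 3 of the 10 were lower and 1 higher, against 5.65% of all genes. Of the 6 astrocyte markers 1 was lower, Sox9, at 15.1 and 6.85 FPKM (limma adjusted p = 0.238), and 0 higher.

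**Figure D4:**
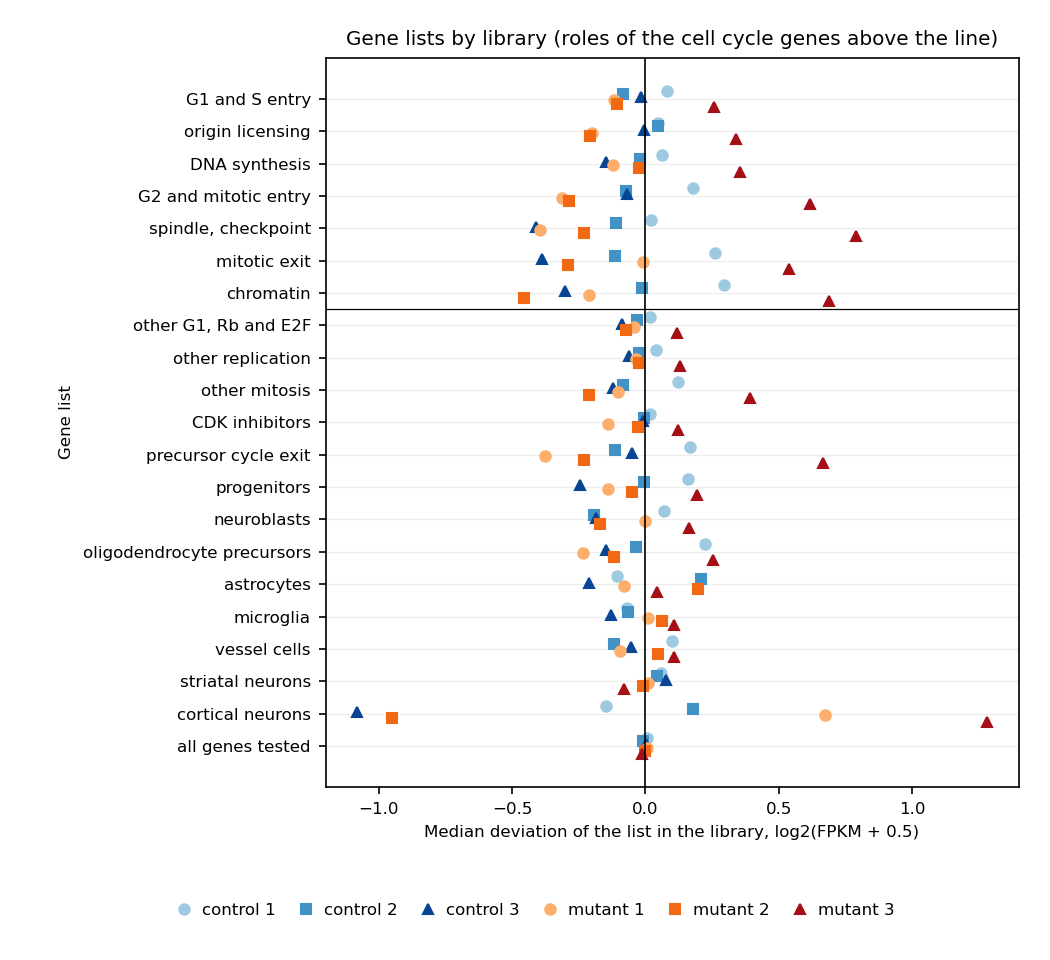
Median deviation (log2(FPKM + 0.5) minus the gene's mean over 6 libraries) of the gene lists drawn, in each library, with the roles of the cell cycle genes above the line and other lists below. Mutant replicate 3 (red triangle) is highest in every role, at 0.26 for G1 and S entry and 0.79 for spindle genes, and of the lists drawn the cortical neuron genes spread most, from -1.08 in control replicate 3 to 1.28.

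Single genes depended on which deposited measure was read. The scaled counts are fragment numbers times 1 factor per library, and FPKM further corrects for length, by a factor that was not the same in every library. The ratio of FPKM to scaled count differed at least 1.5-fold between libraries for 7 of the 38 genes (Bub1, Tyms, Cenpf, Plk1, Cdc6, Cdk1 and Cenpe) and at most 1.1-fold for 16, among them Mki67, Kif11, Mcm5 and Pcna. Cdk1 was at 106.4, 74.3 and 74.2 scaled counts in controls and 78.1, 87.3 and 125.6 in mutants, so the first 2 mutants were not below the controls as they were in FPKM. Mutant replicate 3 was highest for 36 of the 38 genes on scaled counts too, against 18.3% of all genes, with Ccne2 (mutant replicate 2) and Plk1 (control replicate 1) as exceptions. Exons of 12 of the 38 genes, Ccnd1, Ccnd2, Mcm7, Ccna2 and Top2a among them, overlap another annotated gene, and how such fragments were assigned is not given in the sources used here.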

How the data were processed

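RNA-seq of 6 libraries was analysed from 1 table of the series. The authors deposited an FPKM column and a count column per library, per the file headers. TopHat, Cufflinks 2.1.1 and GRCm38.p4 are listed per the submitters' processing notes, whereas for annotation, strand use and shared reads the entry is: not given in the sources used here. The deposited count columns are not whole and were treated as a signal: estimated fragments times 1 factor per library, called scaled counts. Between 97.7 and 97.9% of values, apart from vanishing ones under 0.01, lay within 0.1 of a whole multiple of that factor, so no count test was run.

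Symbols and gene positions came from GENCODE M21 (46483 of 47062 identifiers matched). limma 3.58.1 in R 4.3.3, with a variance trend, was fitted to log2(FPKM + 0.5) (mean FPKM 0.5 or more), over all 6 libraries. Tests were two-sided, with Benjamini-Hochberg adjustment over all genes and a threshold of 0.05. Fold changes on this scale understate those of low genes. Scaled counts were fitted as log2(scaled count + 1) at a mean of at least 10. The fit was tested on simulated data in which no library stood apart, so that test does not measure its power for these genes. The 38 genes and the lists were chosen with earlier results of these data known. Named besides the 38 genes were Sp9, Pax6 and, from some of the other lists only, genes among those with the smallest p. Pax6 was chosen after its values were seen. Alternatives were other pseudocounts, filters, scalings, a replicate block, robust limma and each library left out.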

Additional observations from a re-analysis of the deposited data

How the results depend on the processing

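No cell cycle gene passed the adjusted threshold under any of the 16 alternatives (limma; smallest adjusted p between 0.428 and 1), and at an unadjusted p under 0.05 there were 1 (higher) without mutant replicate 1, 3 (lower) without mutant replicate 3, 8 (lower) on scaled counts without mutant replicate 3, an alternative chosen after seeing the data, and 0 under the rest. The median log2 fold change of the set was 0.037 as reported, and -0.178 to 0.184 with 1 library left out, turning negative only without mutant replicate 3. Estimates above 0 numbered 25 as reported and 6 to 34 with 1 library left out. The median was -0.196 on scaled counts without mutant replicate 3, with 6 estimates above 0, and 0.005 with quantile normalization. Over all genes, 10 were called as reported, 12 to 21 with 1 library left out, 23 on scaled counts, 32 on scaled counts without mutant replicate 3 and 5 with the replicate block. The replicate numbers share no stated litter or day, so the block is given only here. The correlations of deviations of same-numbered libraries were 0.00, 0.04 and 0.04. Control replicate 1 correlated best with mutant replicate 2, and control replicates 2 and 3 with the mutants of the same number. The planned count tests were not run, since the count columns hold scaled values. Low depth limits genes such as Cdc6, with 17 to 40 fragments per library.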
